A study of Mus musculus with 9 samples.

Results

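Gdf15 (growth differentiation factor 15, RefSeq transcript NM_011819) is the gene described here, across 9 one-color microarrays of mouse lung RNA. It was selected on its measured log2 difference between control and irradiated arrays and on how well that difference held across arrays and processing, so its own values are given as a description and carry no test. All probes whose RefSeq accession names Gdf15 were taken. This gave 1 probe with 1 spot per array, and Gdf15 was 1 of 19751 genes named among 39429 probes. The arrays fell into 2 groups, 4 control arrays and 5 arrays of irradiated left lung, all from male C57BL/6 mice. The age given for all of them is 10 weeks, which need not be the age when the lung was taken. Irradiated mice received a single dose under zoletil and rompun anesthesia, and the labels do not say whether control mice were anesthetized too. Dose, lung region and time after irradiation are not in the labels, so the 5 irradiated arrays can differ in any of these. Age at lung collection can then differ between arrays as well. RNA was pooled before labeling, so the spread between arrays is not the spread between single mice, and p-values measure the spread between these arrays only.

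Gdf15 is a secreted, divergent member of the transforming growth factor beta (TGF-beta) superfamily. It is made as a precursor that furin-type convertases cut, and the mature dimer signals through Gfral, a brainstem receptor that works with the kinase Ret and controls food intake and body weight. In most tissues its transcript is low at rest and is raised by p53 after DNA damage, by Atf4 and Ddit3 in the integrated stress response, and by Egr1, Nfe2l2 or Hif1a in other forms of stress. It is widely used as a secreted marker of tissue injury and cellular senescence, and epithelial cells and macrophages are among its known sources. In whole lung RNA a change in the number of cells of a type and a change in RNA per cell cannot be told apart.

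The stretch upstream of Gdf15 is shown because the transcription factors examined with it act through such sequence. The RefSeq promoter table (build GRCm38.p6) gives Gdf15 2 start sites on the minus strand of chromosome 8, at 70632456 and 70632095, which lie 361 bases apart. The 236 bases from position -250 to -15 of the first start hold none of the 9 motifs searched for, and the only match in either window of 300 bases was an E-box at position -83 from the second start, in capitals.
Gdf15 upstream of the first start, chr8:70632471-70632706, minus strand: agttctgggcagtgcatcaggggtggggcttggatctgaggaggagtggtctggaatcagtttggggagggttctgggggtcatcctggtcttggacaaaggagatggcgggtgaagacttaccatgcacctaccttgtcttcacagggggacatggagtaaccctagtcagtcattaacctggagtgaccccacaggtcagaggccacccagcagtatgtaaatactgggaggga
Gdf15 second start, chr8:70632163-70632188, minus strand: cagggcagggCACGTGtgagcatcca
Both strands were searched from 250 bases before to 50 bases after each start. Of 32851 promoters of this length, the E-box CACGTG was present in 7.15%, the C/EBP-ATF response element TGATGNAA in 3.97%, the cyclic AMP response element TGACGTCA in 1.79%, the AP-1 site TGANTCA in 7.81%, the EGR1 site GCGTGGGCG in 0.612%, the SP1 site GGGCGG in 35.7%, the antioxidant response element TGACNNNGC in 12.4%, the TATA box TATAAA in 13.6% and the p53 half-site in 8.36%. The cyclic AMP response element and the antioxidant response element share their first 4 letters. A missing match says only that these letters are not in this window.

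Before any normalization between arrays, the Gdf15 spot had a processed signal of 478, 618, 490 and 582 intensity units on control arrays 1 to 4. On irradiated arrays 1 to 5 it had 4990, 7030, 15000, 6120 and 4540 units. Every irradiated array was thus brighter than every control array, and the control values lay closer together than the irradiated ones. The spot was well above background on all 9 arrays and carried no mark as an outlier or as saturated. Its median signal was 12.9 to 25.3 times its local background among the controls and 134 to 285 times among the irradiated arrays. The local background itself was 28 to 58.5 units around the control spots and 21 to 60 units around the irradiated spots, so the background of the 2 groups overlapped. The scanner software's own error was 10.0% to 10.1% of the processed signal on each array.

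After quantile normalization, which gives all arrays the same distribution of log2 intensity, Gdf15 was at 9.05, 9.18, 8.74 and 9.24 on control arrays 1 to 4. On irradiated arrays 1 to 5 it was at 12.46, 12.95, 13.10, 12.61 and 12.36. Irradiated array 3 was the highest and irradiated array 5 the lowest of its group, and the groups did not overlap. The group means were 9.05 ± 0.22 (SD, n = 4) and 12.70 ± 0.32 (SD, n = 5), a difference of 3.64 log2 units or 12.5-fold. The ratio of the mean processed signals before normalization was 13.9. The control arrays spanned 0.50 log2 units and the irradiated arrays 0.74, both small beside the distance between the groups.

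**Figure D1:**
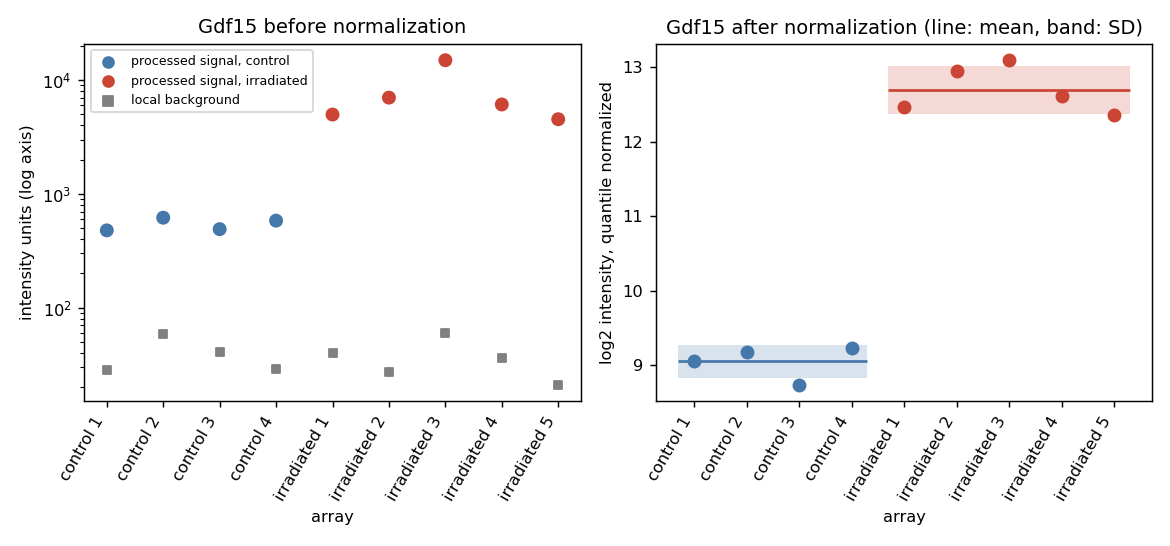
Gdf15 on each of the 9 arrays, as processed signal and local background in intensity units on a log axis (left) and as quantile-normalized log2 intensity (right), where the line is the group mean and the band 1 SD to each side. The 4 control arrays lie between 8.74 and 9.24 and the 5 irradiated arrays between 12.36 and 13.10.

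What set Gdf15 apart on these arrays was the empty space between the groups rather than the size of the mean difference. By mean difference the probe ranked 7 of the 39303 probes kept, and Gdf15 ranked 6 of 19698 genes. By the distance from the highest control array to the lowest irradiated array it ranked 1, at 3.12 log2 units (8.70-fold). The next probes were those of Psrc1, a microtubule-associated p53 target, at 2.14 and of Cdkn1a, the p53-induced cell cycle inhibitor p21, at 1.78 for the better separated of its 2 probes. Gdf15 and Psrc1 were the only 2 probes with a distance over 2. All irradiated arrays lay above all control arrays for 984 of 39215 probes with a value on every array (2.51%), and below them for 646 (1.65%). Since Gdf15 was chosen for this contrast, these ranks describe it and support nothing further.

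**Figure D2:**
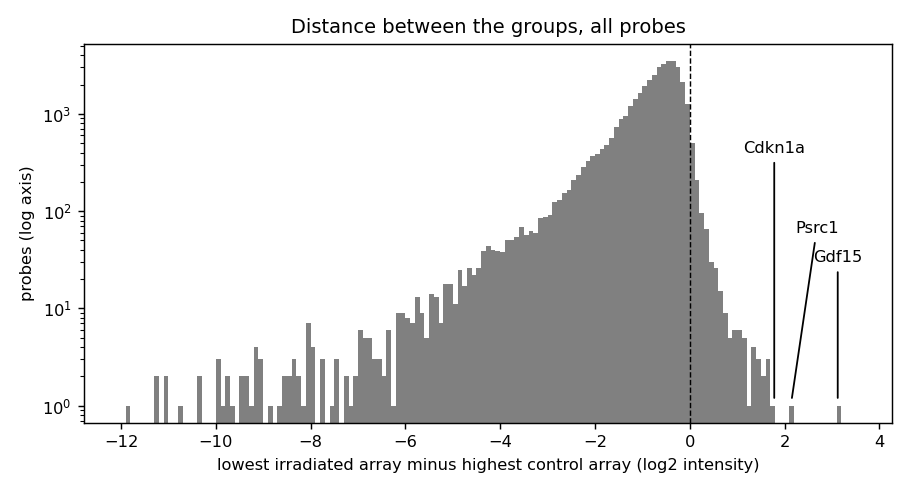
Number of probes (log axis) by the log2 intensity of the lowest irradiated array minus that of the highest control array, in bins of 0.1. Probes right of the dashed line at 0 have groups that do not overlap, and Gdf15 is the farthest right at 3.12, ahead of Psrc1 at 2.14.

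The spread of Gdf15 within its groups was ordinary for its brightness. Its pooled SD was 0.28 log2 units, against a median of 0.22 for the 3246 probes within 0.5 log2 units of its mean intensity and of 0.30 for all probes. Of these 3246 probes, 30.2% had a larger pooled SD, 49.1% a larger SD among the control arrays and 21.0% a larger SD among the irradiated arrays. Its arrays were thus not unusually close together within either group.

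Array quality and scan position were examined beside these values. Between 72.8% and 89.1% of spots were well above background per array, the median local background was 24 to 45.5 units, and no spot was saturated. The spot positions in the scanner output place 8 arrays in 4 pairs of 1 control and 1 irradiated array that lie side by side at the same height, and no source says what these pairs share. Irradiated array 1 has no partner. Gdf15 was higher in the irradiated array of each pair. The difference was 3.90 log2 units between irradiated array 2 and control array 1, 3.91 between irradiated array 3 and control array 2, 3.87 between irradiated array 4 and control array 3, and 3.12 between irradiated array 5 and control array 4. A fit with the pair as a block, which leaves out irradiated array 1, gave 3.70. The authors' own normalized table, built from the median signal minus local background, held a smaller difference of 2.73. Its Gdf15 values were 1790 to 4836 for the controls and 15789 to 24170 for the irradiated arrays, which again did not overlap.

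**Figure D3:**
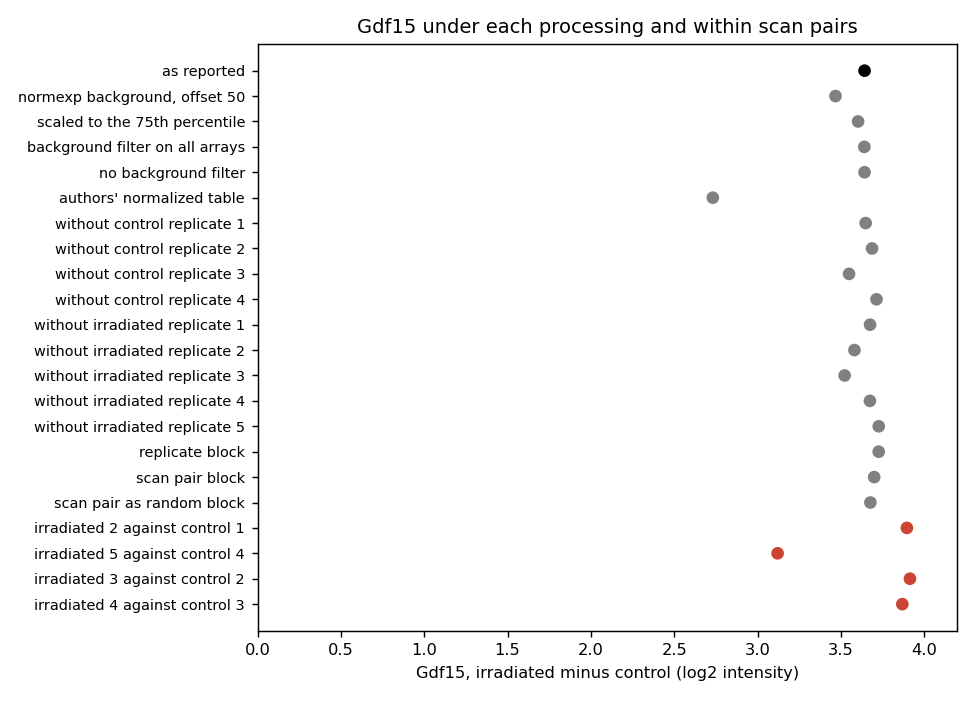
The Gdf15 difference between irradiated and control arrays in log2 units as reported (black), under each other processing (grey) and within each of the 4 scan pairs (red), on an axis that starts at 0. The authors' table gives the smallest value, 2.73, and the pair of irradiated array 3 and control array 2 the largest, 3.91.

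To see whether the rest of the pathway moved with Gdf15, 135 genes in 7 lists were compared between the groups with limma, with Benjamini-Hochberg adjustment over all probes. Some genes stood in several lists, so counts by list can add up to more than the counts over all 135. Across all 39303 probes, 131 passed an adjusted p of 0.05 (0.333%), 75 of them higher (0.191%) and 56 lower (0.142%) on irradiated arrays. Of the 135 listed genes, 7 were higher (5.19%) and 0 lower. Counted by the brightest probe, as the listed genes were, 52 of all 19698 genes were higher and 30 lower. The shares given for the other fits are over probes. The 7 were Psrc1, Eda2r, Cdkn1a, Phlda3, Zmat3 and Tnfrsf10b of the p53 targets and Areg of the secreted factors. With the scan pair as a block, 605 probes passed higher (1.54%) and 494 lower (1.26%), and of the listed genes 21 were higher (15.6%) and 3 lower. With the pair as a random block, which keeps irradiated array 1, 1609 probes passed higher (4.09%) and 1290 lower (3.28%), and 36 and 6 of the listed genes did so. With normexp background correction 56 probes passed higher (0.142%) and 58 lower (0.148%), and 5 listed genes were higher, without Eda2r and Tnfrsf10b. An unadjusted p under 0.05 was found for 5.52% of all probes in the higher and 4.41% in the lower direction, the background for the unadjusted counts given for each list. The median difference over all genes was 0.0085 log2 units and 51.9% of genes had a positive difference.

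Neither the receptor complex of Gdf15 nor the proteases around it passed the test. Of 11 genes in this list, 0 passed in either direction with limma, 0 had an unadjusted p under 0.05, and 0 passed with normexp background correction, with the pair block or with the pair as a random block. The median difference was -0.02 log2 units. Gfral, the receptor, was not well above background on any of the 9 arrays, at 1.91 to 2.22 among the controls and 1.90 to 2.23 among the irradiated arrays. Ret, its signaling partner, had a difference of -0.39 ± 0.34 (SE, adjusted p = 0.804). Gfra1, the GDNF co-receptor, had a difference of 0.12, Furin, the convertase, 0.00 and Mmp14, a membrane metalloproteinase, 0.52. The levels of these 4 genes overlapped between the groups, unlike those of Gdf15.

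The other ligands of the TGF-beta superfamily gave a like count, with 0 of 32 past the test by limma in either direction and a median difference of 0.01. Unadjusted p-values under 0.05 were found for 2 higher and 1 lower gene, near the background shares of 5.52% and 4.41%, normexp correction left 0 called, the pair block called 1 higher and 1 lower, and the random pair block 1 higher and 2 lower. The higher one of the pair block was Inhba, the activin A subunit, with a difference of 1.11 ± 0.40 (SE, adjusted p = 0.356) over all arrays and of 1.49 (adjusted p = 0.0223) with the pair block. Inhba was at 8.37 to 9.05 among the controls and at 10.04 to 10.64 on irradiated arrays 2 to 5, but at 8.33 on irradiated array 1. Gdf15 was high on that array too, at 12.46. The lower one was Bmp2, a bone morphogenetic protein, at -0.45 with the block (adjusted p = 0.0473).

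Of the other ligands in the fixed set of named genes, Tgfb1, a fibrogenic cytokine, had a difference of 0.11 ± 0.20 (SE, adjusted p = 0.930). Bmp4, which patterns lung epithelium, had 0.15 for its brighter probe and -0.87 for its other one. Gdf10, a relative of Bmp3, had -0.44 and passed with the random pair block (-0.51, adjusted p = 0.0426). Mstn, the muscle growth inhibitor, had -0.47, and it was well above background on 1 control array and on no irradiated array. The groups overlapped for these 4 genes, taking the brighter probe of Bmp4.

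The transcripts of 12 factors known to act on Gdf15 gave no call by limma. In either direction 0 passed, 3 had an unadjusted p under 0.05, all higher, normexp correction called 0 and the pair block 0. The random pair block called 3 higher, Hif1a (adjusted p = 0.00579), Nfe2l2 (0.0332) and Ddit3 (0.0346). The median difference was 0.16 and 10 of the 12 differences were positive. Hif1a, the hypoxia factor, was nearest to the threshold with 0.50 ± 0.10 (SE, adjusted p = 0.0912), and its irradiated arrays at 10.95 to 11.29 all lay above its control arrays at 10.50 to 10.84. Ddit3, the stress factor CHOP, was the other one without overlap, at 0.49 ± 0.16 (SE, adjusted p = 0.301). Nfe2l2, the oxidative stress factor, had 0.39, Trp53, which encodes p53, 0.32, Atf4 0.12, Egr1 0.11 and Atf3 0.08. These are transcript levels, and p53, Atf4, Nfe2l2 and Hif1a are known to be controlled largely after transcription.

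The p53 targets other than Gdf15 were the list with the most calls without a block and with the pair block. With the pair as a random block, the secreted factors described below had as many calls in both directions together. Of 30 genes, 6 rose and 0 fell by limma, 25 differences were positive, and the median difference was 0.41. At an unadjusted p under 0.05, 17 were higher and 2 lower, and normexp correction called 4 higher. Psrc1 rose by 2.75 ± 0.20 log2 units (SE, 6.73-fold, adjusted p = 0.00169). It was at 6.84, 7.05, 6.46 and 6.80 on the control arrays and at 10.02, 9.65, 9.58, 9.23 and 9.19 on the irradiated arrays. Its highest irradiated array was array 1, where that of Gdf15 was array 3. Cdkn1a rose by 1.90 ± 0.31 (SE, 3.73-fold, adjusted p = 0.0440) by its brighter probe and by 3.16 by the other, both past the test. It was at 12.25, 11.89, 10.90 and 11.74 on the control arrays and at 13.89, 14.29, 13.61, 12.98 and 13.21 on the irradiated arrays. Control array 3 was the lowest control for Cdkn1a, Psrc1 and Gdf15 alike. It was also the lowest for Il6, Ccl2, Trp53 and Mmp14 of other lists, though not for the p53 targets Ccng1 and Phlda3.

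Eda2r, a member of the TNF receptor superfamily, rose by 2.47 ± 0.36 (SE, adjusted p = 0.0326) by its brighter probe. Its other probe, at 2.29, did not pass. The brighter probe was well above background on only 1 control array, and with normexp correction its difference was 0.69 (adjusted p = 0.116). Phlda3, an inhibitor of Akt signaling, rose by 1.19 ± 0.19 (SE, adjusted p = 0.0415). Zmat3, an RNA-binding p53 target, rose by 0.98 ± 0.16 (SE, adjusted p = 0.0419) and Tnfrsf10b, the TRAIL receptor, by 0.83 ± 0.14 (SE, adjusted p = 0.0433, and 0.0569 with normexp correction). All 6 genes had irradiated arrays that lay above all control arrays, as did 10 of the 30 in this list, beside 2.51% of all probes. With the pair block 12 rose and 0 fell, and with the pair as a random block 12 rose and 1, Ddb2, fell.

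Some of the most used p53 readouts did not pass by limma without a block. Mdm2, the feedback inhibitor of p53, had a difference of 0.30 ± 0.12 (SE, adjusted p = 0.401). Ccng1, cyclin G1, had 0.96 ± 0.19 (SE, adjusted p = 0.0763, and 0.0486 with the pair block) and Bax, the pore-forming death effector, 0.81 ± 0.29 (SE, adjusted p = 0.342, and 0.0399 with the pair block). By limma with the pair as a random block, Ccng1 (adjusted p = 0.00735) and Bax (0.0338) passed, and Mdm2 (0.0883) did not. The calls of this list without a block depended on single arrays. Without control array 1, 2, 3 or 4, or without irradiated array 2, 3 or 4, Psrc1 and Areg were the only genes of the 135 still called (2 genes). Without irradiated array 5 there were 4 and without irradiated array 1 there were 18. The differences themselves held over these 9 fits, at 1.64 to 2.09 for Cdkn1a and 1.09 to 1.31 for Phlda3, while the adjusted p ranged from 0.0401 to 0.137 and from 0.0294 to 0.137.

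The integrated stress response, the other main route to Gdf15, gave no call by limma. Of 20 target genes of Atf4 and its partners on the arrays, 0 passed in either direction, 4 had an unadjusted p under 0.05 in the higher and 1 in the lower direction, normexp correction called 0, and the pair block called 1 of each (Slc7a11 higher, Slc7a5 lower). The random pair block called 4 higher and 1 lower. The median difference was 0.18. Chac1, a glutathione-degrading enzyme, had -0.07, Trib3, a pseudokinase, 0.21 and Asns, asparagine synthetase, 0.26 ± 0.08 (SE, adjusted p = 0.260, and 0.0205 with the random pair block). Fgf21, the other stress hormone that acts on the brain, was not well above background on any control array and was so on 1 irradiated array, array 2, at 6.05.

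The 12 chaperones and folding factors of the endoplasmic reticulum had 12 positive differences, from 0.08 to 0.77, and a median of 0.33. By limma 0 passed in either direction, 7 had an unadjusted p under 0.05, all higher, normexp correction called 0, and the pair block called 2 higher, Sdf2l1 and Manf. The random pair block called 6 higher. The median over all genes was 0.0085, and whether the 2 medians differ was not tested.

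Other secreted factors of stress and senescence had the largest median of the 7 lists, 1.03 over 20 genes, with 17 positive differences. By limma 1 rose and 0 fell, 12 had an unadjusted p under 0.05 in the higher and 2 in the lower direction, and the pair block called 6 higher and 1 lower. With normexp correction 1 was higher, 0 were lower and the median was 0.63. The random pair block called 11 higher and 2 lower. Areg, an epidermal growth factor receptor ligand, rose by 2.63 ± 0.24 (SE, 6.20-fold, adjusted p = 0.00668). It was at 9.07, 9.18, 8.41 and 8.92 on the control arrays and at 10.83, 11.44, 12.04, 11.64 and 11.69 on the irradiated arrays. Areg shared with Gdf15 the highest irradiated array, array 3, and the lowest control array, array 3. Control array 3 was the lowest control for Il6 and Ccl2 of this list too.

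The inflammatory cytokines of this list did not pass, and their differences ran from -0.35 for Il1b to 2.77 for Cxcl1. Il6, the acute phase cytokine, had a difference of 2.53 ± 0.66 (SE, adjusted p = 0.178), and Ccl2, the monocyte chemokine, 2.05 ± 0.57 (SE, adjusted p = 0.216). With the pair block, which leaves out irradiated array 1, these were 3.16 (adjusted p = 0.0276) and 2.53 (adjusted p = 0.0361). Il6 was at 7.24, 6.66, 6.50 and 7.62 on the control arrays and at 7.01, 9.48, 10.44, 10.43 and 10.30 on the irradiated arrays. Irradiated array 1 thus lay within the control range for Il6, and it did so for Ccl2 at 9.63, against 8.42 to 10.27 on the control arrays. On that array Gdf15, Psrc1, Cdkn1a and Areg were all above their control ranges. Whether Gdf15 differs from Il6 in its change on that array was not tested.

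**Figure D4:**
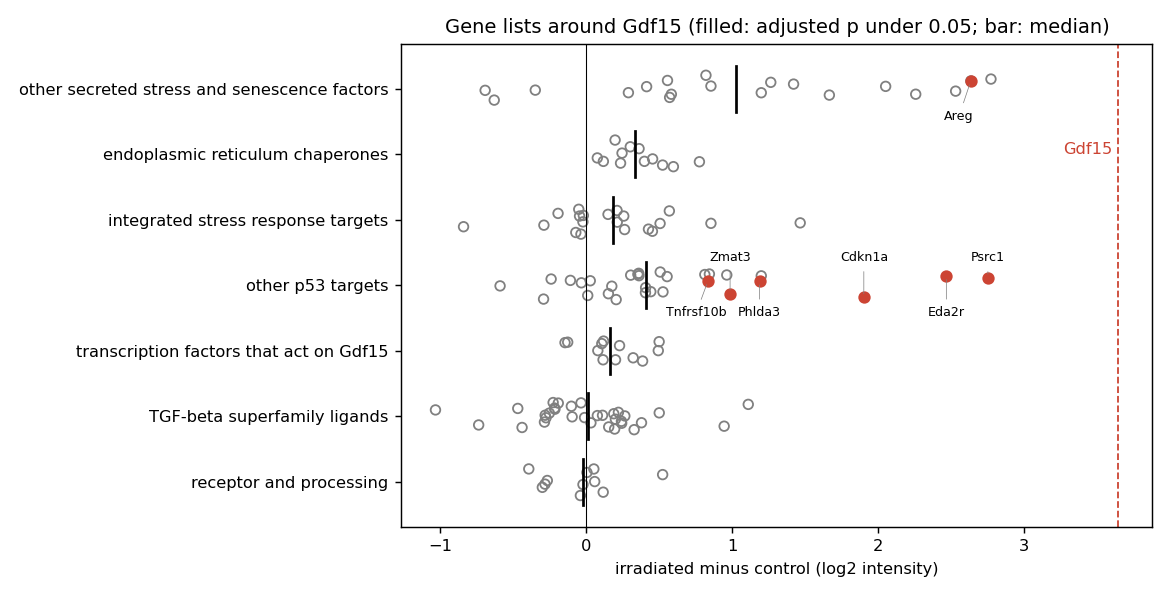
Difference between irradiated and control arrays in log2 units for each gene of the 7 lists (circles), filled where limma's adjusted p is under 0.05, with a bar at each list's median and the dashed line at Gdf15. The 7 filled genes are 6 p53 targets and Areg, all below the 3.64 of Gdf15.

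The genes whose profile over the 9 arrays was most like that of Gdf15 were found among 15240 genes well above background on all 9 arrays. Likeness in size was the root mean square difference of log2 values taken relative to each gene's control mean, and likeness in shape the same after each gene was centered and divided by its SD. Both measures share the arrays and the group contrast with Gdf15, so they carry no p. Psrc1 was nearest in size (0.73 log2 units) and in shape (0.18), and Areg was next in both (0.81 and 0.20), against medians over all candidates of 2.73 and 1.32. Plcd4, a phospholipase C, came after them in both (0.98 and 0.22). Cd177, a neutrophil surface protein, and Mmp12, macrophage elastase, followed in size at 1.08 and 1.12. The 4 neutrophil markers had a median difference of -0.58 (3 negative), and of -0.76 with the pair block. Ctps, CTP synthase, and Ier5l, an immediate early response gene family member, followed in shape at 0.23 and 0.26.

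These neighbors in profile were of unequal stability. Over 11 processing settings, Psrc1 was among the 5 nearest in all 11 by either measure, Areg in 11 by size and 10 by shape, and Plcd4 in 10 and 5. Cd177 was kept in 10 and Mmp12 in 6 by size, while Ctps was kept in 5 and Ier5l in 1 by shape. Cd177 and Mmp12 were nearer to their controls on irradiated array 1 than on the other irradiated arrays, with Cd177 at 8.20 against 6.88 to 8.18 on the control arrays and Mmp12 at 7.10 against 4.55 to 6.68. Among the other listed genes, the ranks in shape of the p53 targets Phlda3, Zmat3, Cdkn1a and Tnfrsf10b were 54, 55, 59 and 66. The p53 target list as a whole was spread over the ranking, with a median rank of 1467 for its 29 candidates, and Perp, Ddb2 and Sesn1 last at 14346, 14466 and 14504. Hif1a ranked 97 and Mdm2 1171.

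**Figure D5:**
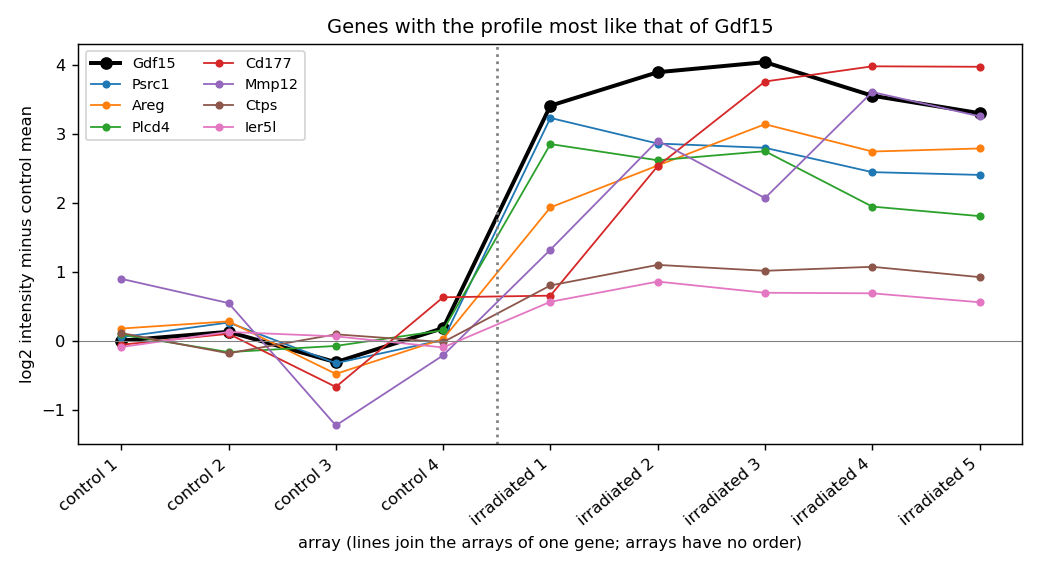
Log2 intensity relative to the control mean on each of the 9 arrays for Gdf15 (black) and the 7 genes most like it in size or shape (colors), with lines that join the arrays of 1 gene. Gdf15 is above Psrc1, Areg and Plcd4 on every irradiated array, and Cd177 is near its controls on irradiated array 1.

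Part of the Cdkn1a promoter is shown because the same search, run on Gdf15, the 7 genes most like it and the called p53 targets that the promoter table holds, found p53 half-sites in it, while neither Gdf15 window held one. Zmat3 and Tnfrsf10b were not searched. The matches are in capitals.
Cdkn1a at position -73 from its first start, chr17:29090896-29090925, plus strand: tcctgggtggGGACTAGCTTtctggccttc
Cdkn1a at position -51 from its first start, chr17:29090918-29090947, plus strand: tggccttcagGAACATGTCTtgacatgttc
The windows of Psrc1, Phlda3 and Eda2r, 3 other p53 targets that rose, held no half-site. Areg, the second most alike gene, held a cyclic AMP response element (capitals), 2 SP1 sites and a TATA box, none of which were found in the Gdf15 windows. The SP1 site at position -52 lies within the stretch printed and is left in lower case.
Areg at position -61, chr5:91139528-91139555, plus strand: ggctggtccgTGACGTCAcgggcggtgg
These matches are descriptions of letters in short windows and say nothing of binding in these lungs.

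Genes next to Gdf15 on chromosome 8 were examined for a rise of the whole stretch. Of the 3 nearest genes with a probe on each side, 0 passed by limma, 1 had an unadjusted p under 0.05, with normexp correction or the pair block 0 passed, and with the pair as a random block 1 passed. The exception was Pgpep1, a peptidase gene separated from Gdf15 by 1 gene without a probe, with a difference of 0.60 ± 0.15 (SE, adjusted p = 0.147). Its irradiated arrays at 10.13 to 10.76 all lay above its control arrays at 9.59 to 10.00. Lrrc25 on the other side had 0.16, Ssbp4 0.14, Isyna1 0.11, Lsm4 -0.02 and Jund, an AP-1 subunit, 0.08. The 6 differences were all far below the 3.64 of Gdf15.

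Markers of lung and other cell types were measured beside Gdf15, and their part in its difference was not tested. Of 89 marker genes in 17 lists, limma called 0. At an unadjusted p under 0.05, 5 were higher and 11 lower, beside 5.52% and 4.41% of all probes. Normexp correction called 0, the pair block 2 higher and 5 lower and the random pair block 3 higher and 9 lower, of which 3 were adipose and 2 type II alveolar genes. The higher calls were 1 macrophage and 1 type I alveolar gene with the pair block, and 2 macrophage and 1 type I alveolar gene with the random pair block. The lung label was borne out by the 8 type II alveolar markers, all well above background on all 9 arrays. Their summed level, the mean log2 value relative to the control mean, was -0.13 to 0.11 on control arrays and -0.23 to 0.18 on irradiated arrays. Only the type I alveolar and club lists had levels that did not overlap between groups. Type I markers (6 of 6 positive) were at -0.26 to 0.12 on control arrays and 0.16 to 0.35 on irradiated arrays, and club markers (3 of 3 negative) at -0.14 to 0.20 and -1.40 to -0.31. Macrophage markers (6 genes, 4 positive, median difference 0.45, 2 of them above all controls on every irradiated array) were at -0.30 to 0.54 on control arrays and -0.01 to 0.42 on irradiated arrays. In 6 further lists, those of adipose tissue, B cells, erythroid cells and smooth, cardiac and skeletal muscle, every difference was negative and the levels overlapped. Adipose markers (4 of 4 negative, median difference -2.08, 3 lower at an unadjusted p under 0.05) were at -0.30 to 0.30 on control arrays and -2.93 to -0.17 on irradiated arrays, and smooth muscle markers (5 of 5, median -0.53) at -0.20 to 0.27 and -0.97 to -0.11. The medians of the cardiac (8 of 8) and skeletal muscle markers (6 of 6) were -1.03 and -1.93 (-0.19 and -1.53 with the pair block), and those of the B cell (4 of 4) and erythroid markers (4 of 4) -0.32 and -0.44. Irradiated array 1 was low in cardiac muscle markers at -5.02, against -0.46 to 0.41 on the other irradiated arrays, and control array 3 was high in skeletal muscle markers at 5.26, against -1.93 to -1.64 among controls 1, 2 and 4, which lay inside the range of the irradiated group. Gdf15 was at 12.46 and 8.74 on these arrays, and 8.74 was its lowest control value.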

How the data were processed

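Lung total RNA was hybridized to one-color Agilent arrays. The authors deposited Feature Extraction output per array, that is intensity values corrected for background without normalization between arrays, and a normalized intensity table. Set against the scanner values by spot position (rank correlation 1.00 on every array), this table held median signal minus local background after quantile normalization, with blanks at signals up to 1.5 times background. How its distribution was set is not given in the sources used here.

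Control spots were dropped and outlier spots set to missing. Log2 processed signals were quantile normalized, probes whose median signal exceeded 1.4 times local background on 4 or more of the 9 arrays were retained (39303 of 39429, 88 with a missing value), and the spots of a probe were averaged. The RefSeq table of GRCm38.p6 named 26055 probes by accession, and the brightest probe stood for its gene. limma (version 3.58.1, R 4.3.3) compared the groups with an intensity trend and no covariate, and p-values were adjusted by Benjamini-Hochberg across retained probes, with calls below 0.05. The fit was tested on simulated data in which arrays varied independently. That test does not cover the shared deviations of arrays adjacent on the scan. The number of arrays limits the precision.

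Gdf15 and all lists were chosen with earlier results of these data known, so nothing here is independent support for its rise or that of other p53 targets. Named genes were a fixed set of regulators, targets, receptors and ligands, up to 3 called genes per list with the largest difference, the 5 genes most like Gdf15 in size and in shape, and the 3 genes on each side of it. Other list members were named after their values were seen. Arrays with the same number in their titles did not deviate together (correlations of deviations from group means -0.17 to 0.06), whereas arrays adjacent on the scan did (0.20 to 0.45). Alternatives comprised normexp correction (offset 50), 75th percentile scaling, other background filters, the authors' table, single arrays left out, replicate and scan pair blocks, a fit with no trend, array weights, a threshold of 0.01 and averaging over a gene's probes.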

Additional observations from a re-analysis of the deposited data

Results flagged for a closer look

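Within-group outliers were looked for with Dixon's 95% critical value in 86 groups of 43 genes, and 6 groups (6.98%) held one, where chance gives about 5%. Gdf15 had none in either group, but it was chosen in part for a difference that held across arrays, so this only describes it. On irradiated array 1, Il6 was lowest at 7.01 where the other irradiated arrays were at 9.48 to 10.44. Ccl2 was lowest on that array at 9.63 (others 11.61 to 12.37), Inhba at 8.33 (others 10.04 to 10.64) and Isyna1, an inositol synthesis gene near Gdf15, at 12.97 (others 13.59 to 13.74). Fgf21 was highest on irradiated array 2 at 6.05, where the other irradiated arrays were at 1.97 to 2.38. Gdf10 was lowest on control array 2 at 9.58, where the other control arrays were at 10.18 to 10.26.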

How the results depend on the processing

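The Gdf15 difference of 3.64 log2 units was 3.47 to 3.73 with normexp correction, 75th percentile scaling, the other filters, the blocks and single arrays left out, and 2.73 from the authors' table. It was not computed with array weights. Leaving out single arrays gave 3.52 to 3.73, and the replicate block 3.73. Of the 135 listed genes, limma called 7 as reported, 5 with normexp correction, 3 from the authors' table, 24 with the scan pair block, 42 with the pair as a random block, 2 when the intensity trend was dropped and 2 with a threshold of 0.01, and leaving out single arrays gave 2 to 18. Pairing arrays by the number in their titles, which the data do not bear out, left 0 (1 of all probes called, 3267 at an unadjusted p under 0.05). Psrc1 and Areg were called in all of these fits but that one. For single named genes, 750 values kept their side of the threshold or moved by less than 1 SD, 54 fell short of the threshold, 25 came past it, 4 moved further and 0 changed the direction of a call. These limits hold throughout: 1 probe measured Gdf15, and Gfral, Fgf21 and Mstn were near background. The cause of the changed counts was not tested.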
